A study of Mus musculus with 2 samples.

Results

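Type I interferon-induced genes were followed across the immune cells of the mouse colon in 2 single-cell libraries, CD163_FL and CD163_NC. The 38 genes are known interferon-induced genes taken by symbol, and they were chosen with earlier results of these data known. Of these, 37 had a row in the count matrices, which hold 32285 genes, and Mx1 was not analysed here. Levels were summed within cells assigned to a lineage by marker genes.

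The series concerns intestinal macrophages of wild-type mice and of mice that lack CD163+ macrophages. Its labels give CD45+ lamina propria cells from the gut, sorted after a Percoll gradient with dead cells stained out. No label ties CD163_FL or CD163_NC to a genotype, strain, age or number of animals, so the libraries are called by their label names and neither is treated as mutant or control. There was 1 library per group. No test between the libraries was possible, each ratio compares these libraries and not the conditions, and the 95% intervals cover counting error only. Ratios are given as log2 of CD163_FL over CD163_NC, so a negative value is a lower level in CD163_FL.

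Type I interferons, IFN-beta and the IFN-alpha family, bind the receptor of Ifnar1 and Ifnar2 on nearly every cell type. The kinases Jak1 and Tyk2 then pass the signal on to ISGF3, a complex with Stat2 and Irf9 as subunits that binds the interferon-stimulated response element (ISRE) of induced genes. The induced proteins sense or degrade viral RNA, block translation or membrane fusion, and tune the response itself. In the gut, microbes and their nucleic acids are known to keep a basal level of this programme in myeloid cells. Many of the same genes also respond to type III interferons and some to interferon gamma, so their levels do not name the ligand.

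RefSeq promoter sequences (build GRCm38.p6, 250 bases before to 50 after each start) were found for 29 of the 37 genes, as 34 promoters. A 10-base motif of the ISRE, GAAA followed by any 2 bases and GAAA again, or TTTC, any 2 bases and TTTC on the other strand, with overlapping matches each counted, was in 20 of the 34 promoters (58.8%) and in 3.44% of all 32851 promoters in the table. In all, 18 genes held it in at least 1 promoter. Shown are the 200 bases before the start of 5 genes on their own strand, with the motif in capitals. They comprise the founding member Isg15, the closely related Ifit3 and Ifit3b, Bst2 and Rsad2. Ifit3 and Ifit3b had the lowest ratios in monocytes and macrophages among genes with at least 50 UMIs in a library. Bst2 was lower in CD163_FL in every lineage without shared cells. Rsad2 was level in the monocyte/macrophage gate as a whole and lower in T cells of CD163_FL.
Isg15: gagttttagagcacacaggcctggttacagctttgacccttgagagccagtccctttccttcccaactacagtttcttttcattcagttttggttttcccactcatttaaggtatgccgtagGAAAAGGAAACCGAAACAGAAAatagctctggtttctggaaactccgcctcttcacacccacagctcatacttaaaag
Ifit3: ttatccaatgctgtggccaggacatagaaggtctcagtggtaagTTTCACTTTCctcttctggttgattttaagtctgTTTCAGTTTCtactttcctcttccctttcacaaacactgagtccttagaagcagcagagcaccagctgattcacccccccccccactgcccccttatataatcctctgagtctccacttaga
Ifit3b: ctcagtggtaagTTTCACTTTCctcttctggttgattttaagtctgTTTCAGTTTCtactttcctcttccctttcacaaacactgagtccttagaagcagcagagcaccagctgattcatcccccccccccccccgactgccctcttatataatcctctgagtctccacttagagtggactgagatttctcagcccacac
Bst2: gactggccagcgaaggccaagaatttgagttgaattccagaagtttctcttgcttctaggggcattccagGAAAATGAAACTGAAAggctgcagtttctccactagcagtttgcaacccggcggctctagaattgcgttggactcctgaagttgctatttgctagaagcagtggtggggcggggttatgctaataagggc
Rsad2: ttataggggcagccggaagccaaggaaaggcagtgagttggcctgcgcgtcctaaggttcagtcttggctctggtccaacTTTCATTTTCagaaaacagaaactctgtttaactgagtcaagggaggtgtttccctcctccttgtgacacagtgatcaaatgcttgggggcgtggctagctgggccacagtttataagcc

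These stretches lie at chr4:156200819-156201018 on the minus strand for Isg15, chr19:34583329-34583528 on the plus strand for Ifit3, chr19:34607757-34607956 on the plus strand for Ifit3b, chr8:71537473-71537672 on the minus strand for Bst2 and chr12:26456453-26456652 on the minus strand for Rsad2. Isg15 held 3 overlapping matches, which began 78, 72 and 66 bases before the start. Ifit3 held matches that began 156 and 122 bases before the start and Ifit3b 188 and 154 bases before it, inside a shared run of bases. Bst2 held a pair of overlapping matches at 130 and 124 bases, and Rsad2 held 1 at 120 bases. Oasl1 and Irf7 had a promoter entry without these letters in the window. Ifi27l2a is named only. A match is a description of letters and not of a bound site.

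After filtering, 13722 cells of CD163_FL and 9705 cells of CD163_NC were kept, with 118383800 unique molecular identifiers (UMIs) in CD163_FL and 88781795 in CD163_NC. Median depth was 6463 UMIs per cell in CD163_FL and 6024 in CD163_NC, and the median mitochondrial share was 2.50% in CD163_FL and 1.92% in CD163_NC. Marker gates took 10389 cells (75.7%) of CD163_FL and 6839 cells (70.5%) of CD163_NC. The libraries shared 49 cell barcodes. Lineages with at least 100 cells in each library were compared, and those with at least 20 are given as levels. The plasmacytoid dendritic gate, a known source of type I interferon, held 2 cells in CD163_FL and 3 in CD163_NC and was not compared.

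The summed level of the 37 genes was lower in CD163_FL in every lineage compared. Over all kept cells it was 1782 CPM (UMIs scaled to the total of the cells summed) in CD163_FL and 5243 CPM in CD163_NC. In the monocyte/macrophage gate it was 6555 CPM in 905 cells of CD163_FL and 18436 CPM in 369 cells of CD163_NC, a log2 ratio of -1.49 (95% interval -1.51 to -1.47). Monocytes and macrophages stood above every lymphocyte lineage within each library. Since the counts come from the 3' ends of transcripts, CPM is not scaled by gene length.

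T cell, plasma cell and B cell sums had lower ratios from smaller levels, and the ILC2 sum had a higher one. CD4 T cells, gated on Cd4 without Foxp3, Cd8a, Cd8b1 or Trdc, had 1705 CPM in CD163_FL and 6014 CPM in CD163_NC (log2 -1.82, interval -1.84 to -1.80). CD8 alpha beta T cells, gated on Cd8b1, had 1308 CPM in CD163_FL and 5281 CPM in CD163_NC (-2.01, interval -2.04 to -1.99). T cells with Cd8a but not Cd8b1 had 937 CPM in CD163_FL and 4024 CPM in CD163_NC (-2.10, interval -2.18 to -2.02). The intervals of these T cell ratios all lay below that of the monocyte/macrophage gate.

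Plasma cells, which secrete antibody, had 1356 CPM in CD163_FL and 5512 CPM in CD163_NC (-2.02, interval -2.04 to -2.00). B cells had the lowest summed level of the lineages compared, 680.3 CPM in CD163_FL and 2101 CPM in CD163_NC (-1.63, interval -1.68 to -1.58). Type 2 innate lymphoid cells (ILC2) had 1093 CPM in CD163_FL and 2256 CPM in CD163_NC (-1.05, interval -1.14 to -0.95), the ratio nearest to 0 among the lineages compared. Cells in no gate were lower in CD163_FL too, at 1838 CPM against 5118 CPM in CD163_NC.

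A single gene carried much of these sums. Ifi27l2a, a small hydrophobic protein of the interferon alpha-inducible 27 family, gave 16.7% of the summed UMIs in monocytes and macrophages of CD163_FL and 35.7% in CD163_NC. In CD4 T cells it gave 46.7% in CD163_FL and 64.4% in CD163_NC. Without it the ratio was -1.12 in monocytes and macrophages, -1.24 in CD4 T cells, -1.59 in CD8 alpha beta T cells, -1.07 in plasma cells, -1.01 in B cells and -0.79 in ILC2. The direction was the same in each, and the B and plasma cell ratios then lay nearer to 0 than that of monocytes and macrophages. The plasma cell sum, 4.07-fold lower in CD163_FL with Ifi27l2a, was 2.11-fold lower without it.

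**Figure D1:**
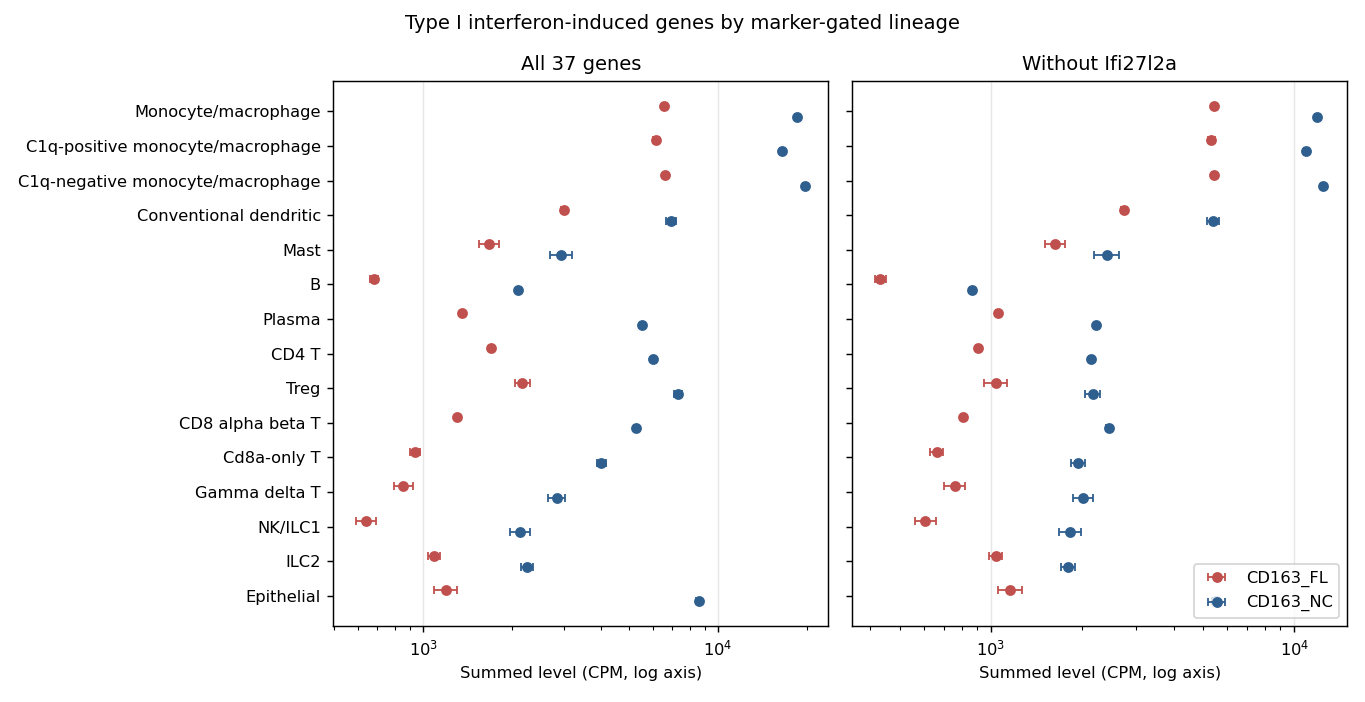
Summed level of the 37 genes (left) and of the 36 without Ifi27l2a (right) per marker-gated lineage, as CPM on a log axis, for CD163_FL (red) and CD163_NC (blue), 1 library each. Points are levels and bars exact Poisson 95% intervals, which cover counting error only. In the monocyte/macrophage gate CD163_FL sits at 6555 CPM and CD163_NC at 18436 CPM, and CD163_FL lies left of CD163_NC in each row drawn.

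Counted gene by gene, more members were lower in CD163_FL than were within 1.5-fold in each lineage, by the least in ILC2. A gene was measured in a lineage with at least 20 UMIs over both libraries and called when its CPM differed at least 1.5-fold. In the monocyte/macrophage gate 31 of 37 measured members were lower in CD163_FL and 0 were higher, beside 34.9% of all 10576 measured genes lower and 18.6% higher. The median log2 ratio was -1.66 over the members and -0.24 over all measured genes. The median of all genes was thus itself shifted in this gate, and relative to it the summed level ratio was -1.25.

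In CD8 alpha beta T cells 36 of 37 members were lower and 0 higher, beside 18.7% of all genes lower and 18.3% higher, with medians of -1.85 for the members and 0.08 for all genes. In CD4 T cells 35 of 37 were lower and 0 higher, beside 18.0% and 12.0% of all genes. In T cells with Cd8a only, 28 of 31 were lower and 0 higher, beside 16.6% and 21.0%. Over the whole T cell gate 36 of 37 were lower and 0 higher, beside 21.7% and 11.9%. The T cell lineages therefore held a larger share of members lower than of all genes.

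B cells had 29 of 36 measured members lower and 0 higher, beside 20.5% of all genes lower and 11.4% higher. Plasma cells had 27 of 33 lower and 0 higher, beside 14.0% lower and 15.6% higher. ILC2 had 14 of 26 lower and 0 higher, beside 21.3% lower and 19.2% higher, and the median member there was -0.82. Over the 7 lineages without shared cells, 26 members were measured in all 7, and 8 of them were lower in all 7, beside 0.672% of the 6993 genes measured in all 7. These were Isg20, Oas3, Usp18, Ifi27l2a, Ddx60, Rtp4, Xaf1 and Bst2. None of the 37 was at least 1.5-fold higher in any of the 7.

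**Figure D2:**
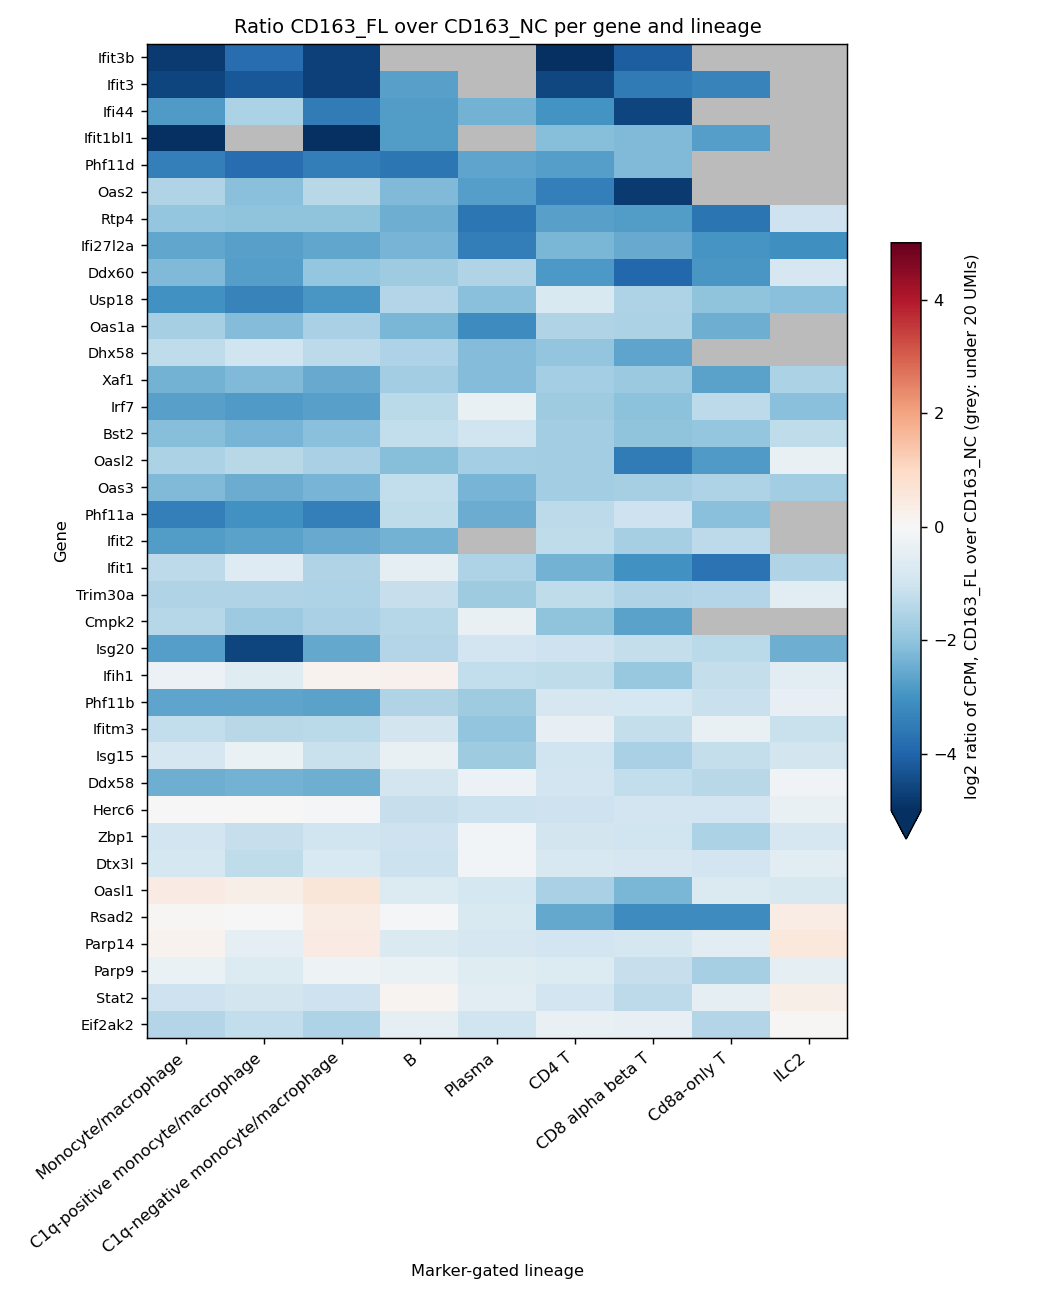
Log2 ratio of CPM, CD163_FL over CD163_NC, for each of the 37 genes (rows, by median ratio) in 9 marker-gated lineages (columns), with blue lower and red higher in CD163_FL. Grey marks genes under 20 UMIs, and ratios below the colour scale take its darkest blue. Nearly every measured cell is blue, and the red cells in the monocyte and macrophage columns are those of Oasl1, Rsad2, Parp14 and Ifih1.

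The IFIT proteins bind viral RNA and hinder its translation, and their 5 genes are neighbours on chromosome 19. Summed, they had the lowest ratio of any role in the monocyte/macrophage gate as a whole (-2.67). In the C1q-positive part of this gate, described below, their sum was at -2.05. The other induced genes (-2.57) and the transcription factors (-2.36) had lower ratios in that part. Ifit3 had 5.47 CPM in CD163_FL (33 UMIs) and 131 CPM in CD163_NC (358 UMIs) in monocytes and macrophages, 23.9-fold lower (log2 -4.58, interval -5.14 to -4.06). Ifit3b had 6 UMIs in CD163_FL and 75 in CD163_NC (-4.78, interval -6.27 to -3.59). These genes are close copies of each other, so the split of reads between them is uncertain, and both ran the same way.

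Ifit2 had 23.5 CPM in CD163_FL and 165 CPM in CD163_NC in the same gate (-2.81), while Ifit1 was closer, with 37.8 CPM in CD163_FL and 94.1 CPM in CD163_NC (-1.32). Ifit1bl1 had 1 UMI in CD163_FL and 45 in CD163_NC, a ratio of -6.63 whose interval runs from -11.97 to -4.08. In CD8 alpha beta T cells Ifit1 was further apart, with 8.05 CPM in CD163_FL and 65.6 CPM in CD163_NC (-3.03). Summed, the 5 genes stood at 67.9 CPM in CD163_FL and 433 CPM in CD163_NC in monocytes and macrophages (-2.67) and at 26.4 CPM in CD163_FL and 174 CPM in CD163_NC in CD8 alpha beta T cells (-2.72). Plasma cells lacked them nearly altogether, with 0.82 CPM in CD163_FL and 3.32 CPM in CD163_NC.

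Isg15 encodes a ubiquitin-like protein that is attached to other proteins, Herc6 a ligase that attaches it in mice, and Usp18 the protease that removes it and dampens receptor signalling. Isg15 differed less than most members in myeloid cells, with 662 CPM in CD163_FL and 1196 CPM in CD163_NC (-0.85, interval -0.92 to -0.79). In CD8 alpha beta T cells it had 75.6 CPM in CD163_FL and 234 CPM in CD163_NC (-1.63), and in plasma cells 40.8 CPM in CD163_FL and 140 CPM in CD163_NC (-1.78). B cells were within 1.5-fold, at 21.4 CPM in CD163_FL and 27.7 CPM in CD163_NC. The gene thus showed its lowest ratios in lymphocytes, where its level was low.

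Usp18 had 11.1 CPM in CD163_FL and 89.7 CPM in CD163_NC in monocytes and macrophages (-3.01), far from the ratio of Isg15 in the same cells. In CD4 T cells it had 15.5 CPM in CD163_FL and 26.2 CPM in CD163_NC (-0.76). Herc6 was level in monocytes and macrophages, at 92.3 CPM in CD163_FL and 94.1 CPM in CD163_NC (-0.03, or 0.22 relative to all genes). Its ratio was -0.95 in CD8 alpha beta T cells and -1.16 in B cells.

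The OAS enzymes make 2'-5'-linked oligoadenylates that activate the RNA-degrading enzyme RNase L, and the OAS-like Oasl1 lacks this activity and is described in mice as a repressor of Irf7 translation. In monocytes and macrophages 4 of these 5 genes were lower in CD163_FL, beside 34.9% of all genes. Oas3 had 36.5 CPM in CD163_FL and 170.0 CPM in CD163_NC (-2.22), Oas1a 44.9 CPM in CD163_FL and 142 CPM in CD163_NC (-1.66), Oasl2 82.0 CPM in CD163_FL and 245 CPM in CD163_NC (-1.58) and Oas2 23.9 CPM in CD163_FL and 68.6 CPM in CD163_NC (-1.52).

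Oasl1 ran the other way there, at 820.3 CPM in CD163_FL and 612 CPM in CD163_NC (0.42, interval 0.34 to 0.50). Relative to the median of all genes its ratio was 0.67, and relative to genes of like span it was 0.86, both past 1.5-fold. Oasl1 in CD8 alpha beta T cells had 4.52 CPM in CD163_FL and 22.1 CPM in CD163_NC (-2.29), and in CD4 T cells 5.88 CPM in CD163_FL and 18.1 CPM in CD163_NC (-1.62). Oas2 had 0.50 CPM in CD163_FL against 13.7 CPM in CD163_NC in CD8 alpha beta T cells (-4.79) and 0.98 CPM in CD163_FL against 10.6 CPM in CD163_NC in CD4 T cells (-3.43). The OAS genes of plasma cells were all lower in CD163_FL, beside 14.0% of all genes, with Oas1a the lowest at -3.15. B cells likewise had all 5 lower, beside 20.5% of all genes.

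Ddx58 (RIG-I), Ifih1 (MDA5) and Dhx58 (LGP2) are cytosolic receptors of viral RNA, Ddx60 is a related helicase and Zbp1 binds Z-form nucleic acids. Ddx58 had 15.9 CPM in CD163_FL and 86.8 CPM in CD163_NC in monocytes and macrophages (-2.45). Ifih1 in the same cells was within 1.5-fold, at 305 CPM in CD163_FL and 377 CPM in CD163_NC (-0.31). Its T cell ratios were lower, -1.28 in CD4 T cells and -1.89 in CD8 alpha beta T cells, the second from 22.8 CPM in CD163_FL and 84.6 CPM in CD163_NC. The pair of RNA receptors thus differed in opposite order, Ddx58 most in myeloid cells and Ifih1 most in T cells.

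Ddx60 was lower in CD163_FL in all 7 lineages, with 18.1 CPM in CD163_FL and 84.2 CPM in CD163_NC in monocytes and macrophages (-2.22) and 5.12 CPM in CD163_FL and 77.1 CPM in CD163_NC in CD8 alpha beta T cells (-3.91), the lowest ratio there among genes with at least 50 UMIs in CD163_NC. Dhx58 had -1.27 in monocytes and macrophages and -2.64 in CD8 alpha beta T cells. Zbp1 had 173 CPM in CD163_FL and 333 CPM in CD163_NC in monocytes and macrophages (-0.94), and 79.4 CPM in CD163_FL and 88.1 CPM in CD163_NC in plasma cells (-0.15).

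Rsad2 (viperin) turns CTP into an inhibitor of viral polymerases and lies beside Cmpk2, a nucleotide kinase that supplies it, on chromosome 12. In monocytes and macrophages Rsad2 was level, at 375 CPM in CD163_FL (2262 UMIs) and 357 CPM in CD163_NC (980 UMIs), with a ratio of 0.07 (interval -0.04 to 0.18). Its neighbour Cmpk2 was lower there, at 17.1 CPM in CD163_FL and 45.6 CPM in CD163_NC (-1.42). In T cells both were lower in CD163_FL, Rsad2 with ratios of -2.55 in CD4 T cells and -3.14 in CD8 alpha beta T cells, and Cmpk2 with -1.99 and -2.67 in the same gates. Rsad2 in CD8 alpha beta T cells had 4.27 CPM in CD163_FL and 37.6 CPM in CD163_NC.

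Isg20, an exonuclease that degrades RNA, had 14.7 CPM in CD163_FL and 99.2 CPM in CD163_NC in monocytes and macrophages (-2.75) and was highest in plasma cells, with 51.8 CPM in CD163_FL and 100.1 CPM in CD163_NC (-0.95). Eif2ak2, the kinase PKR that halts translation, had 24.2 CPM in CD163_FL and 67.5 CPM in CD163_NC in monocytes and macrophages (-1.48). It was within 1.5-fold in CD4 T cells (-0.37), CD8 alpha beta T cells (-0.41), B cells (-0.49) and ILC2 (0.07).

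Ifitm3, which keeps viral envelopes from fusing with endosomes, had 1619 CPM in CD163_FL and 3850.4 CPM in CD163_NC in monocytes and macrophages (-1.25, interval -1.29 to -1.21). Bst2 (tetherin), which holds budding virus at the cell surface, had 194 CPM in CD163_FL and 852 CPM in CD163_NC in the same cells (-2.14). Bst2 was highest in plasma cells, with 556 CPM in CD163_FL and 1096 CPM in CD163_NC (-0.98), and was lower in CD163_FL in all 7 lineages. Ifitm3 in CD4 T cells was within 1.5-fold (-0.42).

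All 8 of the other induced genes were lower in CD163_FL in monocytes and macrophages, beside 34.9% of all genes. The same held in CD4 T cells (18.0% of all genes), CD8 alpha beta T cells (18.7%), B cells (20.5%) and plasma cells (14.0%). In ILC2 3 of the 5 measured were lower, beside 21.3% of all genes. Ifi27l2a had 1098 CPM in CD163_FL and 6575 CPM in CD163_NC in monocytes and macrophages (-2.58, interval -2.62 to -2.54), and 303 CPM in CD163_FL and 3295 CPM in CD163_NC in plasma cells (-3.44). Rtp4, which helps receptors reach the cell surface, had 48.7 CPM in CD163_FL and 187 CPM in CD163_NC in monocytes and macrophages (-1.94) and 12.3 CPM in CD163_FL and 85.2 CPM in CD163_NC in CD8 alpha beta T cells (-2.80). Its ratios were lowest in T cells with Cd8a only (-3.64) and plasma cells (-3.61).

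The PHD finger genes Phf11a, Phf11b and Phf11d form a cluster on chromosome 14. In monocytes and macrophages their ratios were -3.43, -2.64 and -3.42, with Phf11b highest at 39.8 CPM in CD163_FL and 248 CPM in CD163_NC. In CD8 alpha beta T cells Phf11a and Phf11b were nearer to 0, at -1.05 and -0.89. Ifi44, a cytoplasmic protein of GTPase-like fold, had -2.84 in monocytes and macrophages and -4.58 in CD8 alpha beta T cells, Xaf1, an antagonist of the apoptosis inhibitor XIAP, had -2.36 and -1.85, and the TRIM protein Trim30a had -1.50 and -1.51 in the same gates.

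Irf7, the transcription factor that drives the IFN-alpha genes, had 113 CPM in CD163_FL (683 UMIs) and 741 CPM in CD163_NC (2032 UMIs) in monocytes and macrophages, 6.55-fold lower (-2.71, interval -2.84 to -2.59). It was lower in CD4 T cells (-1.79), CD8 alpha beta T cells (-2.05), B cells (-1.36) and ILC2 (-2.09), and within 1.5-fold in plasma cells (-0.38). Stat2, a subunit of ISGF3, had 69.1 CPM in CD163_FL and 141 CPM in CD163_NC in monocytes and macrophages (-1.03), and was within 1.5-fold in B cells (0.15), plasma cells (-0.56) and ILC2 (0.27).

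Parp9 and Dtx3l form a complex that ADP-ribosylates and ubiquitinates proteins, and Parp14 is a further ADP-ribosyltransferase. Of the roles, theirs had the summed ratio nearest to 0 in monocytes and macrophages (-0.11) and in CD8 alpha beta T cells (-0.94). Parp14 had 253 CPM in CD163_FL and 222 CPM in CD163_NC in monocytes and macrophages (0.19) and Parp9 61.1 CPM in CD163_FL and 76.2 CPM in CD163_NC (-0.32), while Dtx3l was lower at 55.3 CPM in CD163_FL and 101 CPM in CD163_NC (-0.87). In CD8 alpha beta T cells all 3 were lower in CD163_FL, at -0.88 for Parp14, -1.14 for Parp9 and -0.86 for Dtx3l. Of all genes there 18.7% were lower.

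The 6 members within 1.5-fold in monocytes and macrophages were thus Oasl1, Rsad2, Parp14, Herc6, Ifih1 and Parp9. All 6 were at least 1.5-fold lower in CD163_FL in CD8 alpha beta T cells. In that gate 36 of all 37 members were lower, beside 18.7% of all genes. In ILC2 Rsad2 (0.37), Parp14 (0.51), Herc6 (-0.37), Ifih1 (-0.57) and Parp9 (-0.47) were within 1.5-fold too, and Oasl1 was lower (-0.81). In B cells Rsad2 (-0.05), Ifih1 (0.22) and Parp9 (-0.34) were within 1.5-fold, and Oasl1, Parp14 and Herc6 were lower. Relative to the median of all genes the myeloid ratio of Rsad2 was 0.31, that of Parp14 0.43, that of Ifih1 -0.06 and that of Parp9 -0.07. The difference between lineages was not tested.

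**Figure D3:**
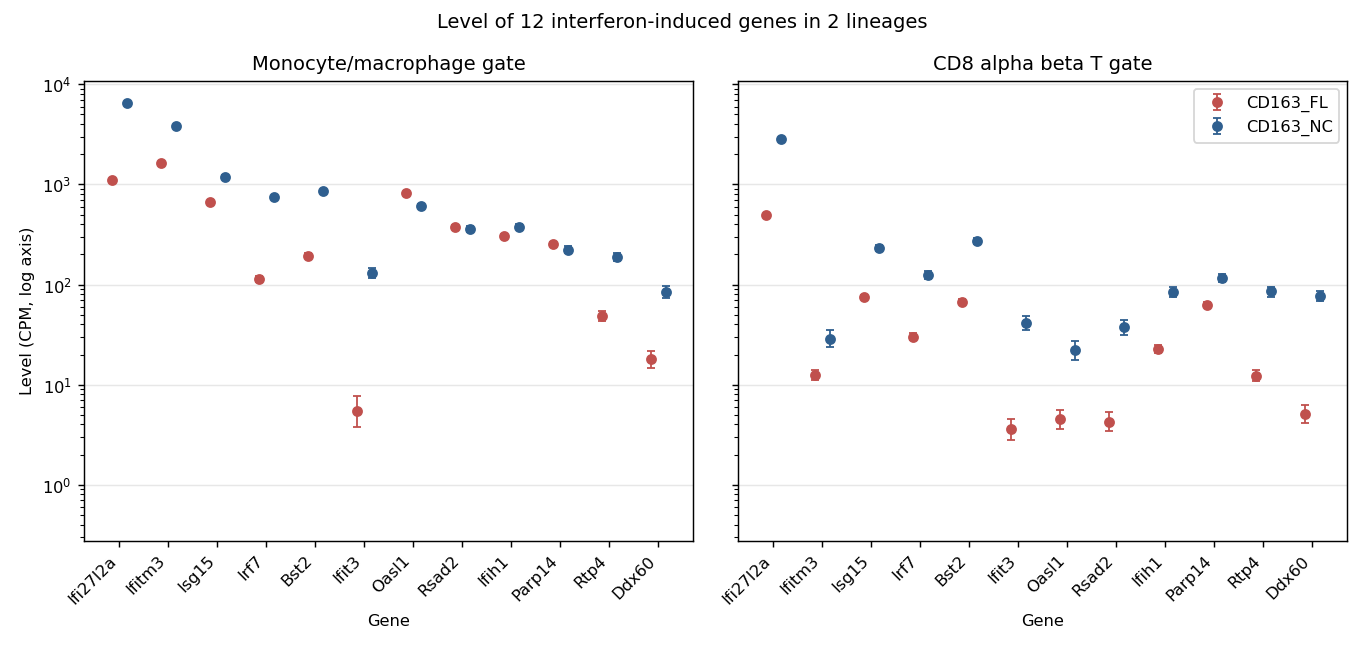
Level of 12 interferon-induced genes in the monocyte/macrophage gate (left) and the CD8 alpha beta T gate (right), as CPM on a log axis, for CD163_FL (red) and CD163_NC (blue), 1 library each, with exact Poisson 95% intervals. In the left panel Oasl1 sits at 820.3 CPM in CD163_FL and 612 CPM in CD163_NC and Rsad2 at 375 CPM in CD163_FL and 357 CPM in CD163_NC, while in the right panel all 12 genes are lower in CD163_FL.

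Monocyte/macrophage cells were also split by the complement genes C1qa, C1qb and C1qc, which mark resident gut macrophages. C1q-positive cells had a summed member level of 6173 CPM in 146 cells of CD163_FL and 16419 CPM in 123 cells of CD163_NC (-1.41, interval -1.45 to -1.37). C1q-negative cells had 6616 CPM in 664 cells of CD163_FL and 19628 CPM in 207 cells of CD163_NC (-1.57, interval -1.59 to -1.55). Within each library the split moved the sum far less than the libraries differed.

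In C1q-positive cells 31 of 36 members were lower and 0 higher, beside 27.5% of all genes lower and 22.3% higher. In C1q-negative cells 31 of 37 were lower and 1, Oasl1, was higher at 0.62, beside 33.3% of all genes lower and 21.5% higher. Isg15 had 919 CPM in CD163_FL and 1172 CPM in CD163_NC in C1q-positive cells (-0.35), against 565 CPM in CD163_FL and 1209.7 CPM in CD163_NC in C1q-negative cells (-1.10). Rsad2 had a ratio of -0.008 in C1q-positive and 0.36 in C1q-negative cells. The C1q-negative value was 0.55 relative to all genes and 0.75 relative to genes of like span, the latter past 1.5-fold. Isg20 in C1q-positive cells had a ratio of -4.60, the lowest there among genes with at least 50 UMIs in CD163_NC. Ifit3b had 0 UMIs in CD163_FL and 33 in CD163_NC in C1q-positive cells, and a count of 0 allows up to 3.

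The share of cells with a UMI was compared after each cell was thinned to 2000 UMIs, with shallower cells left out. Ifi27l2a was found in 65.8% of monocytes and macrophages of CD163_FL (interval 62.5% to 69.0%) and 97.3% of CD163_NC (94.9% to 98.8%). Without thinning the shares were 79.0% in CD163_FL and 97.8% in CD163_NC. Thinned shares were 63.6% in CD163_FL and 93.1% in CD163_NC for CD4 T cells, and 47.8% in CD163_FL and 90.2% in CD163_NC for CD8 alpha beta T cells. They were 30.9% in CD163_FL and 88.1% in CD163_NC for plasma cells, and 28.3% in CD163_FL and 75.8% in CD163_NC for B cells. Fewer cells of CD163_FL held the transcript in each of these lineages.

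Free RNA puts UMIs of abundant genes into every droplet, and the lowest share of a sizeable gate bounds this for Ifi27l2a. Natural killer and type 1 innate lymphoid cells held it in 6.15% of CD163_FL cells and 28.0% of CD163_NC cells, at median depths of 4872 UMIs in CD163_FL and 5522.5 UMIs in CD163_NC before thinning. The other lineages named lay above these shares in each library. Per cell, the median number of Ifi27l2a UMIs among 2000 was 1 in CD163_FL and 12 in CD163_NC for monocytes and macrophages. It was 1 in CD163_FL and 6 in CD163_NC for CD4 T cells, and 0 in CD163_FL and 5 in CD163_NC for plasma cells.

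Irf7 was found in 16.1% of monocytes and macrophages of CD163_FL and 67.3% of CD163_NC after thinning. Isg15 was found in 51.4% of CD163_FL and 70.3% of CD163_NC cells of this gate. Oasl1 ran the other way, with 54.7% in CD163_FL and 46.8% in CD163_NC, and Rsad2 stood at 32.2% in CD163_FL and 33.9% in CD163_NC. These shares had the same order as the levels for Irf7, Isg15 and Oasl1, and Rsad2 was close in both measures.

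A set of 10 core genes (Isg15, Ifit1, Ifit2, Ifit3, Ifit3b, Rsad2, Usp18, Cmpk2, Oasl1 and Ifi44) was used to ask how many induced genes sat in 1 cell. At least 3 were found in 20.1% of 845 thinned monocytes and macrophages of CD163_FL (interval 17.5% to 23.0%) and in 44.7% of 333 of CD163_NC (39.3% to 50.3%). Just under the limit, with exactly 2, were 29.0% of CD163_FL and 22.5% of CD163_NC cells, and with exactly 3 were 16.2% of CD163_FL and 21.0% of CD163_NC cells. The class is a range of a count and not a cell type. The largest number in a single cell was 6 in CD163_FL and 9 in CD163_NC.

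Among T cells they made up 0.31% of 6176 T cells of CD163_FL (19 cells) and 4.25% of 2709 of CD163_NC (115 cells). The shares in CD8 alpha beta T cells were 0.50% in CD163_FL and 5.80% in CD163_NC. B cells had 0 of 1077 in CD163_FL, with an exact binomial interval up to 0.342%, and 7 of 1933 (0.36%) in CD163_NC, so these B cell shares could not be told apart at this depth. Plasma cells had 1 in CD163_FL and 6 in CD163_NC. These shares depend on the limit and the depth. With limits of at least 2 or 4 genes, or thinning to 1000 UMIs, T cells ranged between 0.097% and 2.23% in CD163_FL and between 1.47% and 12.96% in CD163_NC. Monocytes and macrophages ranged between 3.91% and 49.1% in CD163_FL and between 23.2% and 67.3% in CD163_NC.

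**Figure D4:**
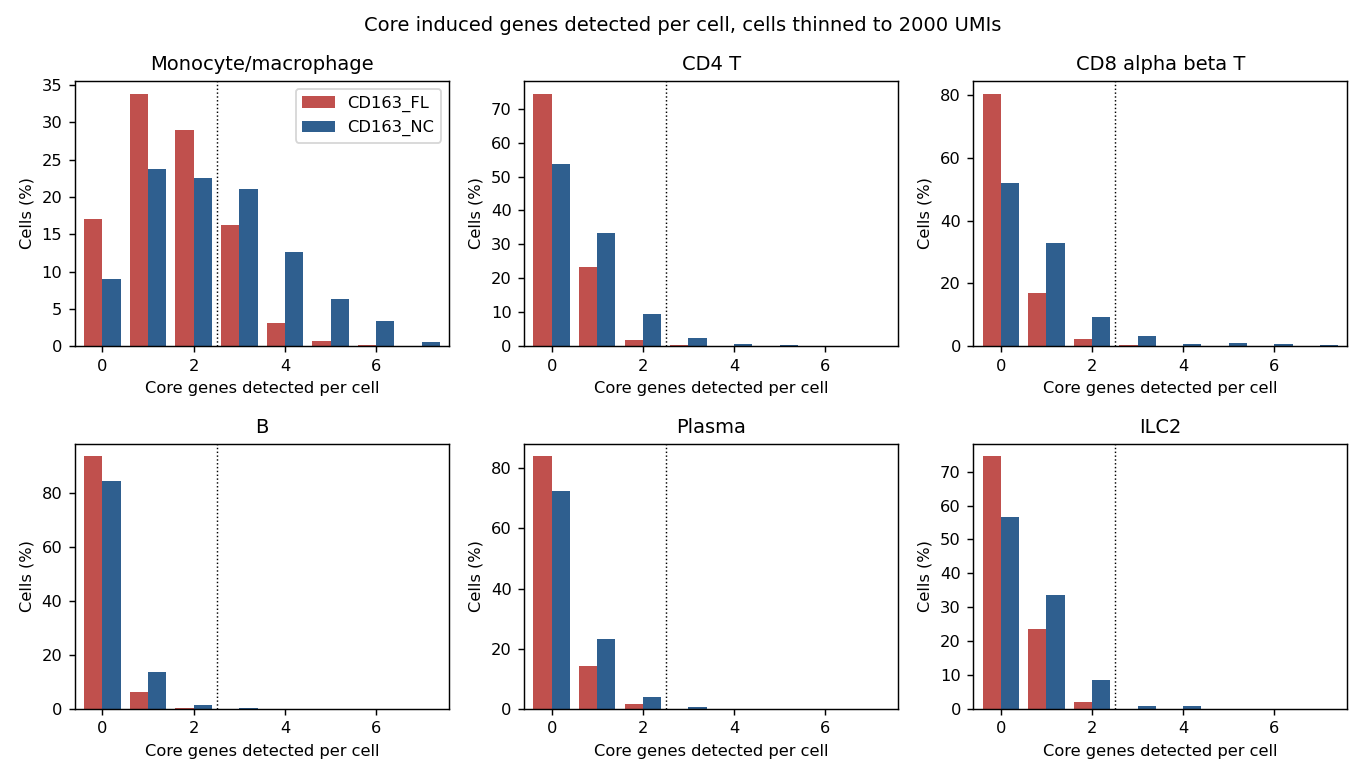
Share of cells (%) by the number of core induced genes with a UMI after thinning to 2000 UMIs per cell, for CD163_FL (red, left bar) and CD163_NC (blue, right bar) in 6 lineages, 1 library each. The dotted line marks the limit of at least 3 genes, past which lie 20.1% of CD163_FL and 44.7% of CD163_NC monocytes and macrophages. Vertical scales differ between panels.

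Pairs of members were counted in the same cells, and the result varied with the pair and the lineage. In T cells of CD163_FL, Ifit3 was found in 6 of 82 cells with Ifit1 (7.32%) and in 0.36% of the other cells. In T cells of CD163_NC it was in 36 of 176 cells with Ifit1 (20.5%) and in 3.43% of the rest. In monocytes and macrophages of CD163_FL Ifit3 was in 0 of 38 cells with Ifit1 and in 8 of the 807 others (0.99%). So few cells held Ifit3 that these shares could not be told apart. In this gate of CD163_NC Ifit3 was in 28.2% of cells with Ifit1 and 15.6% of the others. In the same gate Rsad2 was in 39.8% of cells with Oasl1 and 23.0% of those without it in CD163_FL, and in 44.2% of cells with Oasl1 and 24.9% of those without it in CD163_NC. In T cells Rsad2 was in 1.14% of cells with Oasl1 and 1.12% of those without it in CD163_FL, and in 14.3% of cells with Oasl1 and 5.4% of those without it in CD163_NC. These are shares of thinned cells in 1 library each, read as descriptions.

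Where a member was highest was taken from the mean of both libraries over 13 lineages. For 25 of the 37 genes this was the monocyte/macrophage gate, among them Irf7, Ifitm3, Oasl1, Rsad2 and Ifih1. The mean leans on CD163_NC, where most levels were higher. Within CD163_FL alone this gate came highest for 20 genes and within CD163_NC alone for 26. Isg15 was highest in mast cells (45 cells) and Ifi27l2a in regulatory T cells (69 cells) in CD163_FL. Both were highest in the monocyte/macrophage gate in CD163_NC. Fibroblasts, with 35 cells in CD163_FL and 4 in CD163_NC, were not among the 13 lineages ranked. The epithelial gate, with 23 cells in CD163_FL and 94 shallow ones in CD163_NC, came highest for 6 genes, Ifit1bl1, Oas1a, Ifi44, Ddx60, Parp9 and Dtx3l. Conventional dendritic cells came highest for Usp18 and Phf11a, plasma cells for Isg20 and Bst2, the natural killer gate for Ddx58 and regulatory T cells for Eif2ak2. The highest lineage was the same in both libraries for 23 genes.

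Interferon genes themselves were sparse. Ifnb1 had 85 UMIs in 52 cells of CD163_FL and 55 UMIs in 26 cells of CD163_NC. The monocyte/macrophage gate held 59 of them in 32 of 905 cells of CD163_FL and 32 in 12 of 369 cells of CD163_NC. Ifna2 had 0 UMIs in CD163_FL and 25 UMIs in 7 cells of CD163_NC, of which 21 UMIs lay in 5 cells of the T cell gate. Ifna4 had 0 in CD163_FL and 12 UMIs in 4 cells of CD163_NC. Ifnk had 5 UMIs in 5 cells of CD163_FL and 3 UMIs in 3 cells of CD163_NC. Ifna5, Ifne, Ifnl2 and Ifnl3 had 0 in both, which allows up to 3 UMIs each. The transcripts of the type I ligands counted here thus came from few cells in either library. Further IFN-alpha genes were not counted.

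Receptor and signalling genes were listed apart from the members. Of 5 measured receptor genes none was called either way in monocytes and macrophages, beside 34.9% of all genes lower and 18.6% higher. In the T cell gate Ifngr1 was higher in CD163_FL, with 963 CPM against 481 CPM in CD163_NC (1.00), and Ifngr2 was lower (-1.28). Ifnar1, which the type I ligands bind, was higher in CD163_FL in B cells (0.89) and plasma cells (1.07). Of 7 signalling genes in monocytes and macrophages, 2 were lower and 1 was higher, beside 34.9% of all genes lower and 18.6% higher. The lower ones were Tyk2 (-0.98) and the phosphatase Ptpn6 (-1.84), and the higher one was Jak2 (1.33). In T cells 4 were lower, namely Irf9 (-0.77) and the feedback inhibitors Socs1 (-1.58) and Socs3 (-0.93) with Ptpn6 (-0.98), and 0 were higher, beside 21.7% of all genes lower and 11.9% higher.

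Of 12 sensors and adaptors upstream of interferon, 4 were lower and 1 was higher in monocytes and macrophages, a share lower that is near the 34.9% of all genes. Those with enough counts to name were the DNA sensor Cgas (-2.23) and the transcription factor Irf3 (-1.61), both lower, and the kinase Tbk1 (1.36), higher. Genes that lean towards interferon gamma had 4 of 7 measured higher in CD163_FL and 0 lower in these cells, beside 18.6% of all genes higher and 34.9% lower. The GTPase Gbp2 had 1061 CPM in CD163_FL and 206 CPM in CD163_NC (2.37), its relative Gbp5 was at 2.15 and the nitric oxide synthase Nos2 at 2.71, while the chemokine Cxcl9 was at 0.59, just past 1.5-fold. In C1q-positive cells 3 of 7 were higher, and 1, the chemokine Cxcl10 (-0.89), was lower. Of all genes there 22.3% were higher and 27.5% lower. In C1q-negative cells 7 of 7 were higher and 0 lower, beside 21.5% of all genes higher and 33.3% lower. In T cells 3 of the 6 measured were lower in CD163_FL and 2 were higher, beside 21.7% of all genes lower and 11.9% higher. Irf1 (-0.85) and Cxcl10 (-1.76) were among the lower ones, and Cxcl9 (1.66) and Gbp2 (0.70) were the higher ones. Ifng itself in T cells was lower in CD163_FL, at 235 CPM against 401 CPM in CD163_NC (-0.77).

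Several measures moved with the libraries beside these results, and their part in them was not tested. In monocytes and macrophages ratios of all genes ran with gene span, from a median of -0.63 in the fifth of genes with the shortest span to 0.21 in the longest, and centred on genes of like span the summed ratio was -1.004 with 0 members turning sign. Medians by span ran the same way in other lineages. From the shortest to the longest genes they went from -0.45 to 0.22 in ILC2, from -0.27 to 0.37 in plasma cells and from -0.35 to 0.24 in B cells. In the whole T cell gate they lay between -0.15 and 0.03, and in T cells with Cd8a only between -0.16 and 0.21. Summed ratios of ILC2, plasma and B cells centred on genes of like span are given below. The 4 granule progenitor markers summed to 10.8 CPM in CD163_FL, with 1 marker at 0, and 406 CPM in CD163_NC, with none at 0, in the monocyte/macrophage gate, and the 7 neutrophil markers to 132 CPM in CD163_FL and 263 CPM in CD163_NC, with none at 0. The granule progenitor sum was 9.69 CPM in CD163_FL and 691 CPM in CD163_NC in C1q-negative cells. In C1q-positive cells it was 15.1 CPM in CD163_FL and 27.6 CPM in CD163_NC. Cells that held any granule progenitor or neutrophil marker were then left out. This left 440 cells of CD163_FL and 93 of CD163_NC in the monocyte/macrophage gate, with a summed ratio of -1.56. The median mitochondrial share in this gate was 2.06% in CD163_FL and 1.07% in CD163_NC. Free RNA, estimated from immunoglobulin transcripts outside B and plasma cells, made up between 2.76% and 6.88% of UMIs over gates and libraries.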

How the data were processed

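The deposited counts are unique molecular identifiers per gene and cell barcode, not normalized, from the 10x 3' kit V3 per the labels' protocols. Cell Ranger 7.1.0 made them, per the file headers, and the submitters' processing notes name mm10 and Seurat 4. Alignment settings were not stated in the sources used here.

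Cells needed at least 500 UMIs, 200 genes and at most 10% mitochondrial UMIs. Scrublet (scanpy 1.11.5) called 665 doublets (4.36%, expected 12.2%) in CD163_FL and 308 (2.97%, expected 8.31%) in CD163_NC, which were removed, so some doublets will remain. A cell took the lineage of its family with the most distinct markers detected (at least 2 or 3 of 15 marker lists) and at most 1 marker of each other family. UMIs were summed per lineage and library and given as CPM with exact Poisson 95% intervals. Ratios have exact conditional binomial and shares exact binomial (Clopper-Pearson) 95% intervals. A count of 0 was read as allowing 3 counts per lineage and library. Gene positions and spans are from GENCODE M21 by gene ID, which matched 99.6% of genes. On simulated CD4 T counts for 12248 genes, 200 of them changed, the interval covered the set ratio in 96.5% of changed genes and 5.45% of unchanged genes passed 1.5-fold. These counts were drawn with Poisson error alone from a shared profile. They hold no variation between libraries, so these percentages cover counting error only.

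The members, lists and role groups were chosen with earlier results of these data known, and 1 signalling gene is not reported here. By the rule for named genes, up to 8 members per lineage with at least 50 UMIs in the higher library and an interval wholly beyond 1.5-fold were named, and the other members were given so that all 37 are accounted for. Alternatives tried were scaling to the median of all genes, stricter gates, doublets kept, a stricter cell filter, equal weight per cell, free RNA subtracted, the sum without Ifi27l2a, a minimum of 1 UMI, and other thinning depths and core gene limits. Chosen after seeing the data were the sum without the 4 members with the most UMIs, centring on genes of like span, and leaving out cells with granulocytic markers.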

Additional observations from a re-analysis of the deposited data

Results flagged for a closer look

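A pair of members had ratio intervals wholly above 0 in 1 lineage while another lineage was lower by more than 1.5-fold, so that the lineages ran in opposite directions. Oasl1 had a log2 ratio of CD163_FL over CD163_NC of 0.42 in monocytes and macrophages and -2.29 in CD8 alpha beta T cells. Parp14 had 0.19 in monocytes and macrophages, which is within 1.5-fold, 0.51 in ILC2 and -0.94 in CD4 T cells. Its sign differed between the myeloid subsets, at -0.44 in C1q-positive and 0.41 in C1q-negative cells. Rsad2, whose interval spanned 0 in the monocyte/macrophage gate as a whole, had 0.36 in C1q-negative cells and -3.14 in CD8 alpha beta T cells. With 1 library per group the difference between the lineages was not tested.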

How the results depend on the processing

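No paired analysis was possible because each group holds 1 library. No summed ratio (log2, CD163_FL over CD163_NC) changed sign in any lineage under any alternative tried, and the cause of the shifts was not tested. The lineages are given below in the order monocyte/macrophage, C1q-positive, C1q-negative, B, plasma, T, CD4 T, CD8 alpha beta T, Cd8a-only T and ILC2. With stricter gates the ratios were -1.59, -1.76, -1.60, -1.74, -1.96, -1.99, -1.90, -1.87, -1.76 and -1.56, the last pair resting on 101 and 53 cells of CD163_FL and 17 cells each of CD163_NC. Without Ifi27l2a they were -1.12, -1.04, -1.19, -1.01, -1.07, -1.38, -1.24, -1.59, -1.55 and -0.79. Without the 4 members with the most UMIs (Ifi27l2a, Bst2, Ifitm3 and Isg15) they were -0.999, -0.95, -1.02, -1.02, -0.87, -1.38, -1.30, -1.54, -1.56 and -0.67.

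Centred on genes of like span they were -1.004, -1.09, -1.08, -1.45, -1.81, -1.85, -1.77 and -2.04 through CD8 alpha beta T and -0.89 in ILC2. Scaled to the median of all genes they were -1.25 in monocytes and macrophages, -1.34 in C1q-positive, -1.38 in C1q-negative, -2.07 in plasma, -1.91 in T, -2.09 in CD8 alpha beta T and -2.19 in Cd8a-only T cells. With each cell weighted equally they were -1.61 in C1q-negative, -1.75 in B, -1.84 in CD4 T and -1.97 in CD8 alpha beta T cells. The T cell ratio was -1.92 under the stricter cell filter and -1.96 with free RNA subtracted. Without cells that held granulocytic markers the myeloid ratios were -1.56, -1.33 and -1.81. The last pair rested on 72 and 313 cells of CD163_FL and 37 and 43 cells of CD163_NC.

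Under stricter gates fewer members were measured, and those lower in CD163_FL numbered 17 in plasma, 8 in Cd8a-only T and 8 in ILC2, against 27, 28 and 14. With a minimum of 1 UMI 23 were lower in ILC2. Oasl1 was counted as 1 member at least 1.5-fold higher in monocytes and macrophages when scaled to all genes or centred on span. Under stricter gates the members at least 1.5-fold higher numbered 1 in monocytes and macrophages, 2 in C1q-positive cells, 1 in Cd8a-only T cells and 1 in ILC2, against 0 in each. ILC2 also had 1 with each cell weighted equally or a minimum of 1 UMI. C1q-negative cells, with 1, had 2 when scaled to all genes, centred on span or without granulocytic markers, and 0 with each cell weighted equally or under the stricter cell filter. Of 20 shares of cells with at least 3 core genes, 20 moved with a limit of 2 genes, 16 with a limit of 4, 13 with thinning to 1000 UMIs and 7 with stricter gates, and CD8 alpha beta T cells ranged between 0.18% and 2.60% in CD163_FL and between 2.67% and 15.2% in CD163_NC. Levels of a few CPM rest on few UMIs, so the lowest ratios are the least precise.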
